A study of Homo sapiens with 12 samples.

Results

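Trefoil peptides, mucins and the proteins that fold them for release are the main products of goblet and surface mucous cells. Described here are 10 genes of that secretory programme: the trefoil peptides TFF1 and TFF3, the gel-forming mucins MUC2, MUC5AC and MUC5B, the membrane mucins MUC1 and MUC13, the endoplasmic reticulum proteins AGR2 and AGR3, and the transcription factor SPDEF. They were chosen by name from 33990 genes that had any count, of 60617 gene identifiers listed, and TFF1 was included because it had been seen in one of the cell lines only. The value that singled out TFF1 was its count of 0 in every vehicle library of HCT 116p53-/- cells, so its difference between the lines is given as a description with no test.

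HCT 116p53-/- is a human colon carcinoma line, and all 4 groups carry the genotype given in its name. The second line, labelled uL3Δ, is described in the study's methods as a derivative of it stably silenced for the ribosomal protein uL3 (gene RPL3), while the sample labels call it a knockout. Each line was treated with vehicle or with 5 nM actinomycin D (Act D, an inhibitor of RNA polymerase I at low dose) for 24 h. Each of the 4 groups had 3 libraries, labelled as biological replicates, and TruSeq RNA libraries were sequenced as read pairs. Nothing in the labels said whether the derivative was 1 clone. Values are expected counts per gene, and CPM is the count divided by the scaled total of the library, times 1000000.

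In goblet cells the gel-forming mucins are packed into granules as disulfide-linked polymers, and trefoil peptides are released with them onto the mucosal surface. TFF1 and MUC5AC are typical of gastric surface cells, TFF3 and MUC2 of intestinal goblet cells. AGR2 and AGR3 belong to the protein disulfide isomerase family and AGR2 is needed for MUC2 to leave the endoplasmic reticulum, while SPDEF drives goblet cell maturation. MUC1 and MUC13 stay in the plasma membrane, where their extracellular parts carry dense O-linked glycans.

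The promoter windows of 3 members are shown because they carry the contrasts that follow: AGR2 and AGR3 are neighbours on chromosome 7 of which one was abundant and the other nearly unread, and MUC1 was read in every library of both lines. Each window runs from 250 bases before to 50 bases after a RefSeq start site (GRCh38.p14), is written 5′ to 3′ on the gene's strand, and is in lower case with motif matches in capitals. The motifs were chosen with the data known and were searched on both strands: TGTTTAC and TGTTTGC (both forkhead), TATAAA (the TATA box), GGGCGG (the GC box), CACCTG (the E-box), AGATAA (the GATA motif) and the palindromic oestrogen response element. The AGR2 window is chr7:16804950-16805249, minus strand.
AGR2: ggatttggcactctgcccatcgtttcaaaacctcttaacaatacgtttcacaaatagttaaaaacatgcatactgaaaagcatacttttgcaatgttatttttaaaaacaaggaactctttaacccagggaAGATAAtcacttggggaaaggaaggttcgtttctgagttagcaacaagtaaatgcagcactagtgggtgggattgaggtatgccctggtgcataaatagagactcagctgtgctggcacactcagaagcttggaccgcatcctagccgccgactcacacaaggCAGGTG
The AGR3 window is chr7:16881934-16882233, minus strand.
AGR3: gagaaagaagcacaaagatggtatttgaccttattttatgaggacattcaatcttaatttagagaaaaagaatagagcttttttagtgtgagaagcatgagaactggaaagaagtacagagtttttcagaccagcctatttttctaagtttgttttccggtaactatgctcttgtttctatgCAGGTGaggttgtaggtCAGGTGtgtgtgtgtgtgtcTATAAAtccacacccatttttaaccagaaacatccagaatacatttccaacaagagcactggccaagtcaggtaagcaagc
The MUC1 window is chr1:155192866-155193165, minus strand.
MUC1: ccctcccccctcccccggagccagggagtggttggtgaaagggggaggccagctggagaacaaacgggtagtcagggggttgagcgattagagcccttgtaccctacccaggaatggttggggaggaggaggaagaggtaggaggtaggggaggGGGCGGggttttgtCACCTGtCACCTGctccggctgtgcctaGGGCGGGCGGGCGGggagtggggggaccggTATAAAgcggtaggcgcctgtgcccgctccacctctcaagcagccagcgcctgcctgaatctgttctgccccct
In AGR2 the capitals mark 1 GATA match and 1 E-box, read as CAGGTG on this strand. In AGR3 they mark 2 E-boxes and a TATA box, and in MUC1 a TATA box, 2 E-boxes and 4 GC boxes of which 3 overlap each other. Of 34943 promoter windows, 10.4% held the GATA letters, 20.6% the E-box, 11.6% the TATA box, 44.9% a GC box, 3.42% and 3.89% the forkhead forms and 0.0572% the oestrogen element. The MUC13 and SPDEF windows held none of these motifs, and that of MUC2 held 1 GC box. GC content was 43.7% in AGR2, 38.0% in AGR3 and 65.7% in MUC1, against a median of 58.7% over all windows. A match is a description of letters only. TFF1, TFF3, MUC5AC and MUC5B were not matched.

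Total counts per library ran from 10087925 to 21138886, so that 3 counts, taken as the floor for a library, stood for 0.150 to 0.347 CPM. RPL3, the gene named in the labels of the second line, did not have fewer reads there, at 1241 ± 82.5 CPM against 1136 ± 15.2 in HCT 116p53-/- with vehicle (SD, n = 3 each, adjusted p = 0.155, edgeR's quasi-likelihood test), although the sign of its log2 difference turned with scaling to library size alone (-0.11 with vehicle and -0.13 with Act D). The lines differed widely: 71.3% of 15692 tested genes were called between them with vehicle (adjusted p under 0.05, 35.1% higher and 36.2% lower in the uL3Δ libraries), and in 72.5% the groups did not overlap (35.5% higher and 37% lower). With Act D 70.4% were called. Colon epithelium markers were part of that. CDH1 stood at 66.7 CPM in HCT 116p53-/- and 0.444 in the uL3Δ libraries, KRT19 at 608 and 36.5 and EPCAM at 153 and 35.5, whereas KRT18, another epithelial keratin, stood at 604 and 839, all with vehicle. The mesenchymal gene VIM stood at 21.9 and 2234, while COL1A1 stood at 7.48 and 4.14 and CDH2 at 0.745 and 0.647. Of 12 mesenchymal markers, 10 were tested with vehicle, and 8 were called higher and 1 lower in the uL3Δ libraries (median 3.19 on the log2 scale). The summed level of 12 colon epithelium markers ran from 2477 to 2809 CPM in HCT 116p53-/- libraries and from 1589 to 1980 in the uL3Δ libraries, and that of 12 mesenchymal markers from 58.2 to 103 and from 2601 to 2943, the latter mostly VIM. A list of 12 goblet cell markers summed to 6.86 to 12.4 CPM and to 56.9 to 81.8, the latter mostly AGR2, with 6 to 8 of its genes at 3 counts or fewer in a group. A list of 9 gastric surface mucous cell markers, TFF1 among them, summed to 0.712 to 2.57 and to 20.5 to 28.6 CPM, of which TFF1 alone gave 15.5 to 23.5. The part of these differences in the results on secretory genes was not tested. In bulk RNA, fewer expressing cells and less RNA per cell cannot be told apart.

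TFF1 (ENSG00000160182, chr21:42362282-42366535, minus strand in GENCODE v44 on hg38) was chosen for its pattern between the lines, which is described here. In HCT 116p53-/- cells with vehicle it had 0 counts in each of 3 libraries. Libraries labelled uL3Δ with vehicle held 217, 438 and 230 counts, or 17.4, 21.9 and 15.5 CPM, a mean of 18.3 ± 3.28 (SD, n = 3). No library of the first group came near the second: against the floor of 3 counts per library, the level was at least 94.3-fold higher in the uL3Δ libraries. With Act D the HCT 116p53-/- libraries held 2, 2 and 1 counts and the uL3Δ libraries 310, 140 and 203, so the groups again stood apart, by 182-fold (95% counting interval 77.4 to 561). Intervals and floors here and below cover counting error only.

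TFF3 (ENSG00000160180, chr21:42311667-42315409, minus strand), which lies in the same cluster, had the same distribution at a lower level. It had 1, 0 and 0 counts in HCT 116p53-/- with vehicle, against 88, 200 and 125 in the uL3Δ libraries, a ratio of 407 with a wide interval of 72.6 to 16101. With Act D it had 2, 1 and 0 counts against 128, 45 and 39. Every uL3Δ library was above every HCT 116p53-/- library in both treatments, and the ratio with Act D was 98.2 (33.2 to 480.2). The remaining trefoil gene, TFF2, lies 11285 bases from TFF1 and 30948 from TFF3 and had 0, 0 and 0 counts with vehicle in HCT 116p53-/- against 31, 32 and 23, which is at least 9.70-fold higher. The whole trefoil cluster was thus read in one line and at or under the floor in the other. The genes on either side of it were also higher in the uL3Δ libraries with vehicle. ABCG1, 14423 bases from TFF3, was at 0.358 CPM in HCT 116p53-/- and 5.75 in the uL3Δ libraries. TMPRSS3, which lies beyond TFF1 and fell below the filter, was at 0.0201 and 0.263 CPM.

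**Figure D1:**
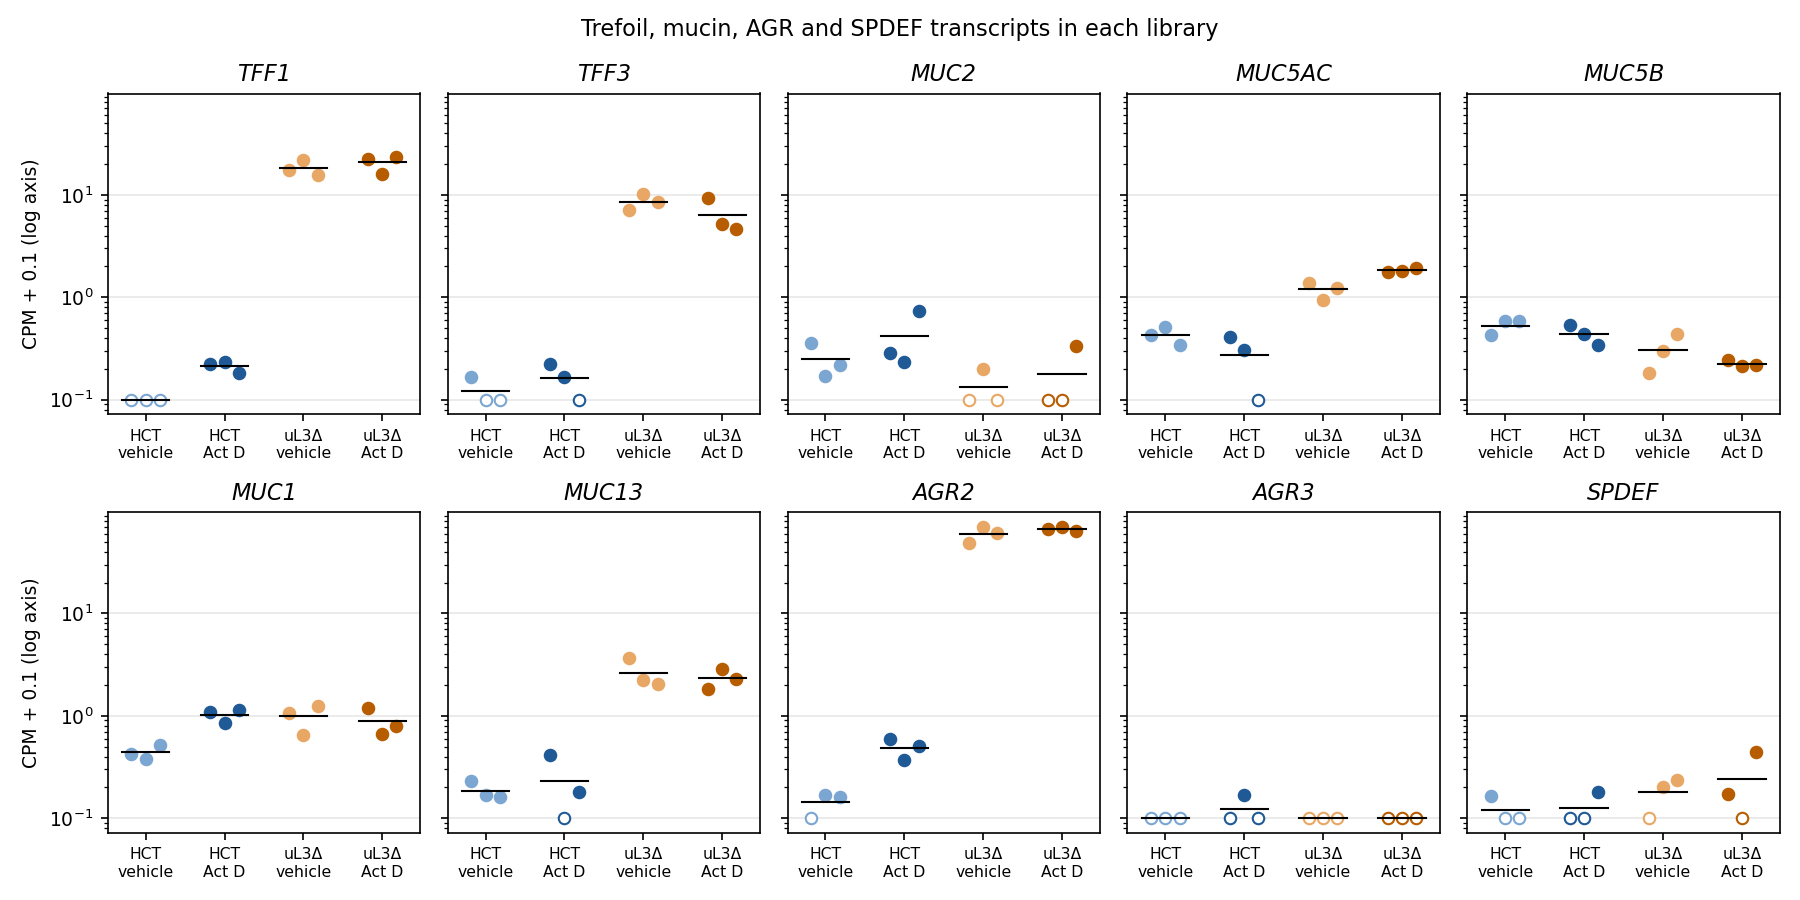
Level of each of the 10 genes in every library, in CPM plus 0.1 on a log axis, with 1 panel per gene and the 4 groups along the horizontal axis. Dots are libraries, hollow dots mark libraries with 0 counts, and the short line is the group mean. TFF1, TFF3, AGR2 and MUC13 lie far apart between the lines in both treatments, while the MUC1 means are 0.340 CPM in vehicle-treated HCT 116p53-/- libraries and 0.785 to 0.927 in the other groups.

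Of the gel-forming mucins, the classical partners of the trefoil peptides, none was abundant in either line. MUC5AC (ENSG00000215182, chr11:1157953-1201138, plus strand), the gastric and airway surface mucin, had 5, 6 and 4 counts in HCT 116p53-/- with vehicle and 16, 17 and 17 in the uL3Δ libraries. With Act D it had 5, 3 and 0 against 23, 15 and 16. The uL3Δ libraries were higher in both treatments with no overlap, by 3.28-fold with vehicle (1.81 to 6.29) and by 9.38-fold with Act D (4.44 to 22.8). Its highest group mean was 1.74 ± 0.0961 CPM.

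MUC2 (ENSG00000198788, chr11:1074875-1110511, plus strand), the main intestinal gel mucin, never exceeded 8 counts in a library. Its counts were 4, 1 and 2 with vehicle and 3, 2 and 8 with Act D in HCT 116p53-/-, against 0, 2 and 0 and then 0, 0 and 2 in the uL3Δ libraries. The means of the uL3Δ groups were the lower ones, at 0.281 times the HCT 116p53-/- level with vehicle (0.0285 to 1.48) and 0.214 times with Act D (0.0234 to 0.945). Single libraries overlapped in both treatments, and MUC2 fell below the filter on low counts, so no test was made. MUC5B (ENSG00000117983, chr11:1223066-1262172, plus strand), found in airway and glandular mucus, had 5, 7 and 8 counts and 7, 5 and 3 with Act D in HCT 116p53-/-. The uL3Δ libraries held 1, 4 and 5, and with Act D 2, 1 and 1. Its uL3Δ level was 0.492 times that in HCT 116p53-/- with vehicle (0.206 to 1.10) and 0.371 times with Act D (0.0896 to 1.16), so both intervals included 1, although the libraries did not overlap with Act D. MUC5AC lies between these neighbours, 47442 bases from MUC2 and 21928 from MUC5B, and was the one of them with the higher level in the uL3Δ libraries.

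The membrane mucins behaved differently from each other. MUC13 (ENSG00000173702, chr3:124905442-124953819, minus strand), an intestinal cell surface mucin, had 2, 1 and 1 counts in HCT 116p53-/- with vehicle and 44, 43 and 29 in the uL3Δ libraries. With Act D it had 5, 0 and 1 against 24, 24 and 19. The groups did not overlap in either treatment, with a ratio of 28.6 with vehicle (10.9 to 107) and of 15.5 with Act D (6.77 to 43.8).

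MUC1 (ENSG00000185499, chr1:155185824-155192916, minus strand), a membrane mucin of many glandular epithelia, was read at a few counts in every library. It had 5, 4 and 7 counts in HCT 116p53-/- with vehicle and 12, 11 and 17 in the uL3Δ libraries, a 2.46-fold ratio (1.35 to 4.71) with no overlap in CPM. With Act D the counts were 16, 11 and 13 against 15, 5 and 6. The lines overlapped with Act D, and the difference of -0.19 on the log2 scale did not pass the test (SE 0.43, adjusted p = 0.715, edgeR), the uL3Δ level being 0.904 times that of HCT 116p53-/- (0.530 to 1.52).

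AGR2 (ENSG00000106541, chr7:16791811-16833433, minus strand) had the most counts of the 10 genes. In HCT 116p53-/- it had 0, 1 and 1 counts with vehicle, while the uL3Δ libraries held 604, 1398 and 895, or 48.4, 69.9 and 60.3 CPM. With Act D the HCT 116p53-/- libraries held 8, 4 and 5 counts and the uL3Δ libraries 920, 617 and 545. The lines stood apart in both treatments. The ratio was 1426 with vehicle, where 2 counts in all set its wide interval of 394 to 11783, and 170.3 with Act D (106 to 293). Between the lines with Act D, 74.1% of all tested genes did not overlap (36.5% higher and 37.6% lower), and the absence of overlap in TFF3, MUC5AC, MUC13 and AGR2 is to be read against that share. In AGR2 the GATA match of the window shown above starts 119 bases before the start site.

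AGR3 (ENSG00000173467, chr7:16859412-16881987, minus strand) lies 25979 bases from AGR2. It had 1 count in all 12 libraries together, in 1 HCT 116p53-/- library with Act D. The TATA match of its window starts 31 bases before the start site. The other neighbour of AGR2, TSPAN13, a tetraspanin gene 7275 bases away, was read in both lines at 16.2 CPM in HCT 116p53-/- and 50.4 in the uL3Δ libraries with vehicle. SPDEF (ENSG00000124664, chr6:34537802-34556333, minus strand), the goblet cell regulator, stayed at or under 3 counts in each library, with 1, 0 and 0 and then 0, 0 and 1 counts in HCT 116p53-/- and 0, 2 and 2 and then 1, 0 and 3 in the uL3Δ libraries. No fold is given for either gene. AGR2 and the trefoil genes were thus read in the uL3Δ libraries with SPDEF at the floor.

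Of the 10 genes, 6 passed the filter on low counts and were tested, namely TFF1, TFF3, MUC1, MUC5AC, MUC13 and AGR2, and 4 did not: MUC2, MUC5B, AGR3 and SPDEF. TFF1, TFF3, MUC5AC, MUC13 and AGR2 passed through the uL3Δ libraries, where they are high, and so had to differ between the lines: their line differences are given as ratios with counting intervals and no test. Levels of different genes were compared per length, in TPM (transcripts per 1000000), within the vehicle-treated uL3Δ libraries. AGR2 led with 28.2, 33.5 and 32.5 TPM, a mean of 31.4 ± 2.79 (SD, n = 3). TFF1 followed with 31.2, 31.0 and 25.8 TPM, a mean of 29.3 ± 3.03, which overlaps AGR2. TFF3 came next at 8.75 ± 0.458 TPM and was below both in every library. MUC1 at 0.537 ± 0.153 and MUC13 at 0.527 ± 0.220 TPM could not be separated by their spread, and the means of MUC5B, MUC5AC and SPDEF were all under 0.04 TPM. In rank, AGR2 was above 89.8% of tested genes, TFF1 above 89.1% and TFF3 above 69.4%, against 21.0% for MUC1, 20.9% for MUC13 and 2.84% for MUC5AC. Per length, TFF1 and AGR2 were therefore well expressed genes in that line. TFF3 was lower, and TFF2, outside the 10, was at 2.31 ± 0.909 TPM. The gel-forming mucins among the 10 were near the bottom of the range, and MUC1 and MUC13 were in its lower part. With Act D the order of the first 3 was the same, at 35.6 ± 3.33 TPM for AGR2, 32.1 ± 5.91 for TFF1 and 6.32 ± 3.10 for TFF3.

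**Figure D2:**
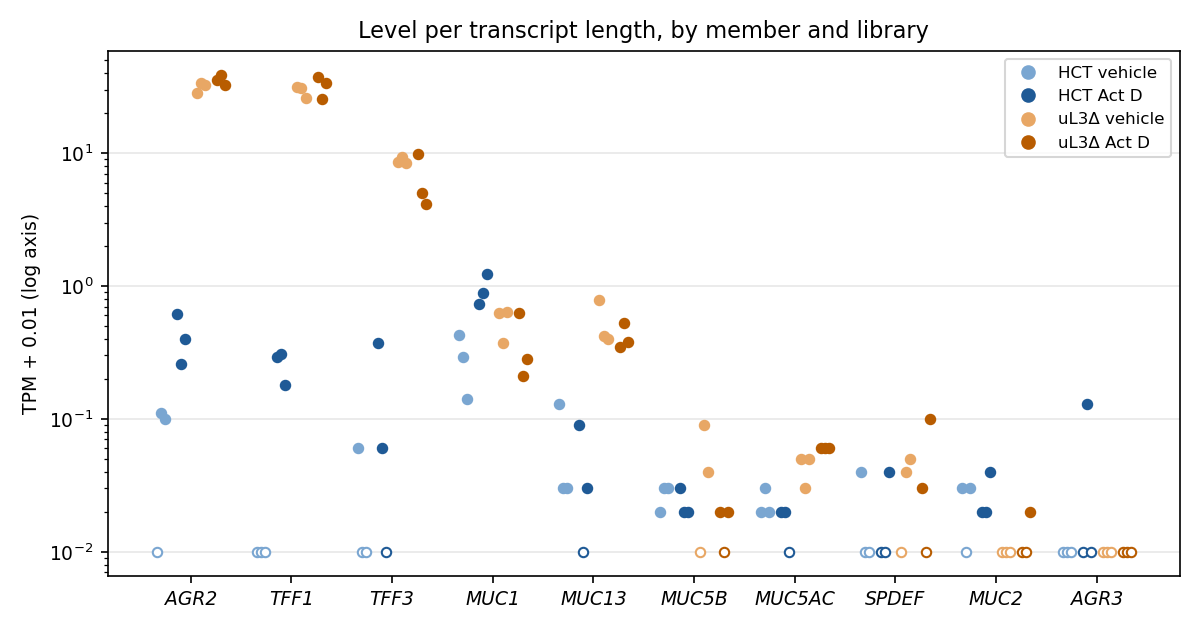
Level per transcript length of the 10 genes, in TPM plus 0.01 on a log axis, for every library of the 4 groups, with genes ordered by their mean in vehicle-treated uL3Δ libraries and hollow dots for libraries listed at 0. AGR2 (mean 31.4 TPM) and TFF1 (29.3) overlap at the top, TFF3 (8.75) is below them, and the mucins lie under 1 TPM in those libraries.

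In HCT 116p53-/-, AGR2 and MUC1 were called higher with Act D than with vehicle on few counts, calls that leaving out single libraries ended. In the uL3Δ libraries none of the tested genes passed. Among HCT 116p53-/- libraries, 18.7% of tested genes were called against vehicle (7.59% higher and 11.1% lower) and in 38.3% the groups did not overlap (18.2% higher and 20.1% lower). AGR2 went from 0, 0.0688 and 0.0603 CPM to 0.498, 0.270 and 0.401, with no overlap, and rose by 2.95 on the log2 scale (SE 0.76, adjusted p = 0.0112, edgeR). This rests on 2 counts with vehicle and 17 with Act D, a ratio of 9.14 (2.17 to 81.5), and without replicate 1 of the Act D libraries the adjusted p was 0.0541. AGR2 was in the test because it passed the filter on low counts through the uL3Δ libraries. With only the HCT 116p53-/- groups fitted, it was left out by the filter and not tested. MUC1 went from 0.324, 0.275 and 0.422 CPM to 0.995, 0.743 and 1.04, again with no overlap, and rose by 1.41 (SE 0.46, adjusted p = 0.0399, edgeR), a ratio of 2.69 (1.47 to 5.14). The MUC1 call was lost when any 1 of the 6 libraries was left out (adjusted p 0.0613 to 0.127, edgeR). TFF1 went from 0 to 5 counts in all, at or under the floor in each library, which is given without a test because its vehicle counts chose it. TFF3, with 1 and 3 counts, did not pass (adjusted p = 0.539, edgeR). MUC13 differed by 0.62 (SE 0.93, adjusted p = 0.702), or by -1.05 without Act D replicate 1, and MUC5AC by -0.80 (SE 0.65, adjusted p = 0.441).

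The uL3Δ libraries had 11.9% of tested genes called with Act D (3.51% higher and 8.4% lower), and 0 of the 6 tested genes were among them by edgeR's quasi-likelihood test, its likelihood ratio test or DESeq2, with 0 at an unadjusted p under 0.05. AGR2 stood at 48.4, 69.9 and 60.3 CPM with vehicle and at 66.8, 70.4 and 63.1 with Act D, which overlap, a difference of 0.16 (SE 0.12, adjusted p = 0.433, edgeR). TFF1 stood at 17.4, 21.9 and 15.5 CPM with vehicle and at 22.5, 16.0 and 23.5 with Act D, which overlap (0.18, SE 0.16, adjusted p = 0.552). TFF3 stood at 7.06, 9.99 and 8.43 CPM and then at 9.29, 5.13 and 4.52, also overlapping (-0.40, SE 0.27, adjusted p = 0.382). MUC5AC was the one tested member whose groups did not overlap, at 1.28, 0.849 and 1.15 CPM with vehicle and 1.67, 1.71 and 1.85 with Act D, as in 27.6% of all tested genes (12.8% higher and 14.8% lower), but it did not pass the test (0.69, SE 0.42, adjusted p = 0.335, edgeR). MUC13 differed by -0.19 (SE 0.40, adjusted p = 0.820) and MUC1 by -0.10 (SE 0.43, adjusted p = 0.921).

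**Figure D3:**
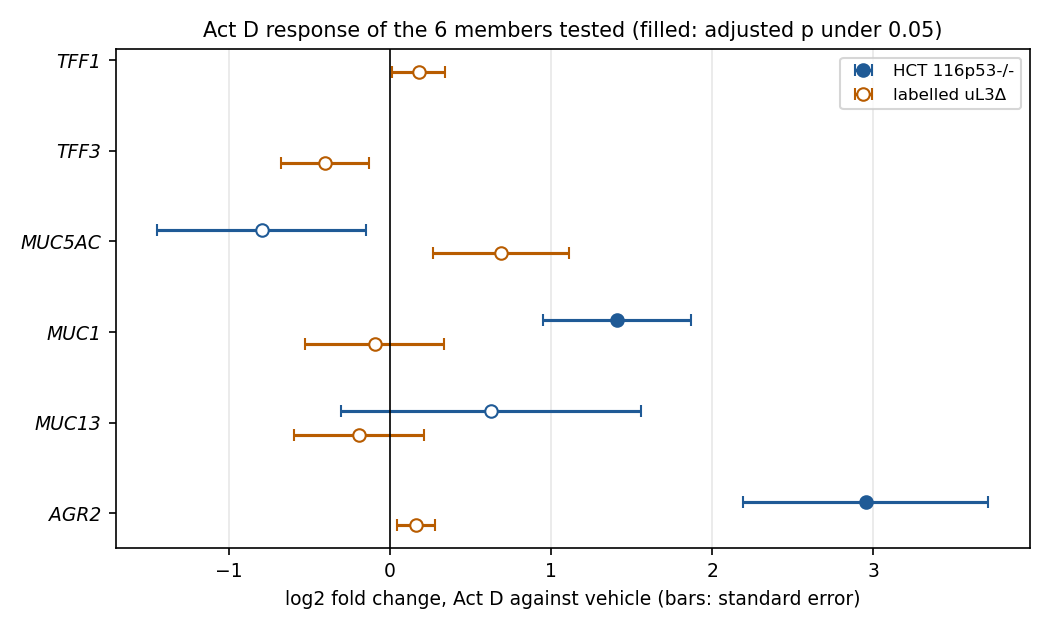
Difference between Act D and vehicle on the log2 scale, with its standard error, for the 6 tested genes in HCT 116p53-/- and in the libraries labelled uL3Δ (n = 3 libraries a group). Filled points have an adjusted p under 0.05, which holds for AGR2 (2.95) and MUC1 (1.41) in HCT 116p53-/- and for no gene in the uL3Δ libraries. AGR2 passed the filter on low counts through the uL3Δ libraries. TFF1 and TFF3 are not drawn for HCT 116p53-/-, where both groups are at or under the floor of 3 counts.

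The difference between the responses of the lines was tested as an interaction, by which 6.53% of tested genes were called (3.3% higher and 3.23% lower). AGR2 was called, its response being lower in the uL3Δ libraries by 2.79 on the log2 scale (an interaction of -2.79, SE 0.78, adjusted p = 0.0382, edgeR). AGR2 passed the filter through the uL3Δ libraries, and its response in HCT 116p53-/- rests on a few counts. The call was lost with DESeq2 (adjusted p = 0.0517) and, in edgeR, without any of 6 single libraries (adjusted p 0.0633 to 0.125): each HCT 116p53-/- vehicle library, Act D replicates 1 and 3 of that line, and Act D replicate 1 of the uL3Δ line. MUC1 (-1.51, SE 0.63, adjusted p = 0.172), MUC5AC (1.48, SE 0.78, adjusted p = 0.286), TFF3 (-1.76, SE 1.42, adjusted p = 0.515) and MUC13 (-0.82, SE 1.02, adjusted p = 0.702, or 0.85 without HCT 116p53-/- Act D replicate 1) did not pass, so the MUC1 response is not shown to differ between the lines. For TFF1, whose line difference chose it, no such test is given.

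The small counts in the Act D libraries of HCT 116p53-/- were set beside those of other genes that the vehicle libraries of that line lacked. As a share of the mean in the uL3Δ libraries of the same treatment, AGR2 in HCT 116p53-/- went from 0.0722% with vehicle to 0.584% with Act D, TFF1 from 0% to 0.548% and TFF3 from 0.254% to 1.01%. By library with Act D, the share was 0.602%, 0.653% and 0.389% for TFF1 and 0.745%, 0.404% and 0.601% for AGR2. Among genes outside the 10, 9 had at least 50 CPM in the vehicle-treated uL3Δ libraries and at most 0.2% of that level in vehicle-treated HCT 116p53-/- libraries, a rule set with the data known. These were PRSS21, CLDN10, SLC38A4, CLDN1, FABP4, HSPA6, FOXR1, LIN28B and OSTN. Their median share was 0.0999% with vehicle (0.0542% to 0.183%) and 0.541% with Act D (0.468% to 1.40%). With Act D, AGR2 and TFF1 stood within that range. In the other direction 1 gene of HCT 116p53-/- met the same rule, MT1E. Its share in the uL3Δ libraries was 0.181% with vehicle and 0.590% with Act D, on 9 and 18 counts. The rule capped the vehicle shares of the 9 genes and of MT1E, and TFF1 was chosen for its 0 with vehicle. Some rise from vehicle to Act D can therefore follow from the choice of genes. The part of this shared rise in the AGR2 response was not tested. MUC13 with Act D stood at 5.86% and MUC5AC at 9.81%, while MUC1 had 0.927 CPM in HCT 116p53-/- against 0.785 in the uL3Δ libraries.

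**Figure D4:**
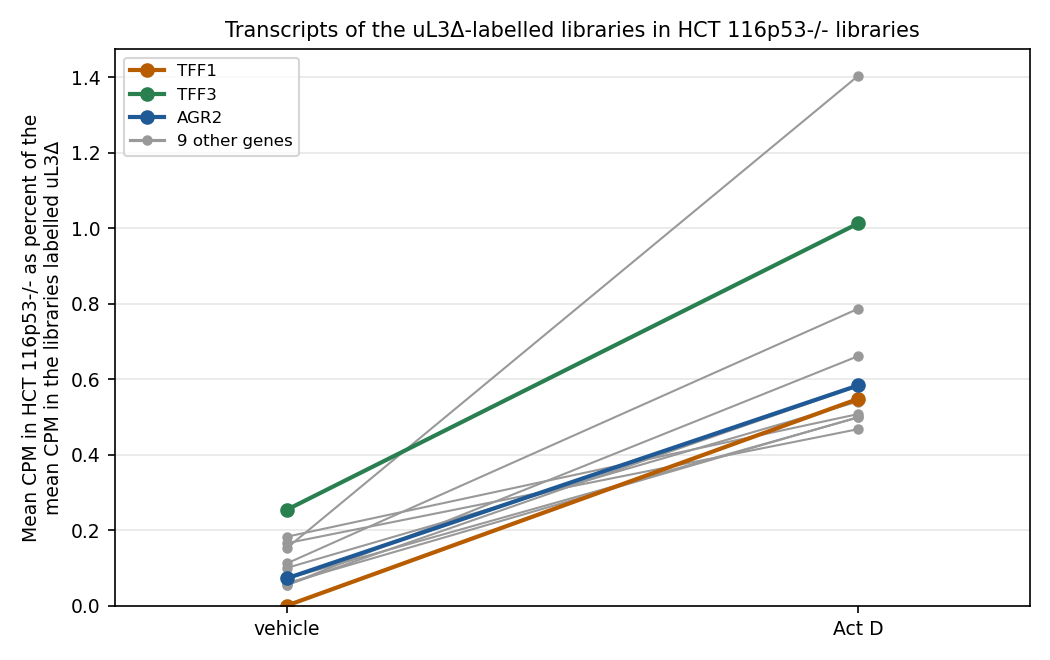
Level in HCT 116p53-/- as a percentage of the level in the libraries labelled uL3Δ with the same treatment, on a linear axis, from vehicle to Act D, for TFF1, TFF3, AGR2 and 9 genes outside the 10 that were nearly unread in vehicle-treated HCT 116p53-/- cells. With Act D, AGR2 (0.584%) and TFF1 (0.548%) lie within the range of the 9 other genes (0.468% to 1.40%).

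The wider secretory programme was read through 6 lists of genes outside the 10, written with earlier results of these data known and counted between the lines with Act D, where 35.1% of all tested genes were higher in the uL3Δ libraries, 35.3% were lower and the median over all tested genes was -0.02 on the log2 scale. Genes nearly unread in one line passed the filter through the other and had to differ, so these counts are descriptions, and no p is given for such genes. Of 29 other goblet, Paneth and mucous cell genes, 11 were tested, and of these 5 were higher and 5 lower (median -1.06, the same with TCN1 and MUC19 at the bounds given below). Those higher included LYZ, the antibacterial lysozyme of Paneth cells, at 0.876 CPM in HCT 116p53-/- and 7.80 in the uL3Δ libraries (3.11, SE 0.30, adjusted p = 4.16e-08, edgeR), and LCN2, the iron-sequestering lipocalin, at 0.152 and 1.25. FCGBP, a mucus protein that binds the Fc part of IgG, was lower, at 9.73 and 0.687 CPM (-3.77). TCN1, a vitamin B12 binding protein, and MUC19, a gel-forming mucin, were at 0 in every uL3Δ library with Act D, at least 4.54-fold and 3.81-fold lower. The list was thus split, with TFF2 (on 1 count in HCT 116p53-/- with Act D), LYZ and LCN2 among the genes that were higher.

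Among 14 other membrane mucins, 6 were tested, of which 3 were higher and 2 lower (median -0.09). PODXL, a sialomucin of podocytes and endothelium, was at 41.8 CPM in HCT 116p53-/- and 277 in the uL3Δ libraries (2.73, SE 0.10, adjusted p = 8.24e-14, edgeR), and MUC12 at 0.686 and 2.53. MUC16, the CA125 antigen, was at 1.30 and 0.139 CPM (-3.23), and MUC3A was 29.2-fold lower (9.78 to 144), with 3 counts in the uL3Δ libraries. CD164, a sialomucin, was higher by 0.19 (adjusted p = 0.0479), and the difference was -0.054 with scaling to library size alone. MUC20, the one list member called with Act D in the uL3Δ libraries, went from 0.422 to 1.28 CPM (1.61, SE 0.46, adjusted p = 0.0276, edgeR). In HCT 116p53-/- it went from 0.843 to 1.69 CPM, with no overlap, but was not called. Its interaction did not pass (0.60, SE 0.60, adjusted p = 0.613, edgeR). The authors' counting gave a spread of up to 2.25 counts to its assignment, and MUC20 is uncertain.

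Of 40 mucin-type O-glycosylation enzymes, 32 were tested, and 17 were higher and 12 lower (median 0.67). The sialyltransferase ST3GAL4 was at 7.35 and 80.8 CPM (3.46, SE 0.13, adjusted p = 1.06e-13, edgeR), and ST6GAL1, which acts mainly on N-linked glycans, at 4.07 and 34.4 (3.08). Enzymes that begin O-glycan chains were split: GALNT16 was higher, at 0.287 and 2.15 CPM, while GALNT5 went from 134 to 7.82 CPM (-4.09, SE 0.16, adjusted p = 2.64e-13) and GALNT3 from 14.0 to 0.162 (-6.37). GALNT14 had 2 counts in the uL3Δ libraries and was 151-fold lower (41.7 to 1254). With Act D in HCT 116p53-/-, where 7.59% of all tested genes were higher and 11.1% lower, 1 tested enzyme of this list was higher and 8 were lower, among them ST6GAL1 (from 11.8 to 4.07 CPM), the core sialyltransferase ST3GAL1 (from 20.3 to 9.18) and the fucosyltransferase FUT8, also an N-glycan enzyme (from 23.6 to 12.9). In the uL3Δ libraries, where 8.4% of all tested genes were lower with Act D, 2 were lower, ST3GAL1 (from 49.1 to 28.0 CPM) and FUT4 (from 31.3 to 23.6).

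The protein disulfide isomerase family, to which AGR2 and AGR3 belong, was mostly higher in the uL3Δ libraries with Act D. Of its 20 other listed genes, 18 were tested, and 14 were higher and 1 lower, a median of 0.66 against -0.02 over all tested genes. With scaling to library size alone, 10 were higher and 4 lower. PDIA6 was at 206 CPM in HCT 116p53-/- and 704 in the uL3Δ libraries (1.77, SE 0.08, adjusted p = 1.24e-12, edgeR), TMX4, a transmembrane thioredoxin, at 18.5 and 70.7, and ERP44, which retains cargo in the early secretory pathway, at 24.8 and 59.3. P4HB, the founding member, was lower, at 740.1 and 482 CPM (-0.62, SE 0.09, adjusted p = 6.52e-06). AGR2 itself was at 0.390 ± 0.114 and 66.8 ± 3.62 CPM. It passed the filter through the uL3Δ libraries and so had to differ, and its difference is not ranked against the family. With Act D in HCT 116p53-/-, ERO1B (0.70) and PDIA3 (0.24) were higher and TXNDC11 lower (-0.51), and TXNDC11 was also lower with Act D in the uL3Δ libraries (-0.41).

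Of 34 transcription factors of the secretory lineage, 22 were tested, and 11 were higher and 9 lower (median 0.50). FOXA2, a pioneer factor of endoderm-derived epithelia, had 0, 0 and 0 counts in vehicle-treated HCT 116p53-/- libraries and 332, 409 and 402 in those labelled uL3Δ, at least 128-fold higher. With Act D it had 3, 2 and 4 against 322, 159 and 162, a ratio of 99.3 (52.0 to 218). CREB3L1, a factor of the endoplasmic reticulum that raises secretory capacity, was at 0.0925 and 5.76 CPM and the nuclear receptor PPARG at 10.3 and 143 (3.79). In the other direction stood CDX2, the intestinal identity factor, at 19.6 and 0.201 CPM (-6.61), with FOXA3 at 5.12 and 1.21 (-2.03). With Act D in HCT 116p53-/-, KLF5 (0.49) and ETS2 (0.47) were higher and NR3C1, the glucocorticoid receptor, lower (-0.35). NR3C1 also fell in the uL3Δ libraries, from 83.8 to 49.0 CPM (-0.78, SE 0.10, adjusted p = 5.12e-05).

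Of 26 genes of the granule release machinery, 24 were tested, with 8 higher and 11 lower (median -0.14). MARCKS, a substrate of protein kinase C in mucin release, was at 5.49 and 137 CPM (4.64, SE 0.12, adjusted p = 1.81e-15, edgeR) and the small GTPase RAB27B at 2.76 and 15.2 (2.45). Lower in the uL3Δ libraries were RAB3B, at 71.8 and 5.36 CPM, and the calcium sensor SYT7, at 25.8 and 3.65 (-2.82). With Act D in HCT 116p53-/-, SYT1, another calcium sensor, fell from 42.5 to 13.6 CPM (-1.64, SE 0.12, adjusted p = 1.02e-07, edgeR), and the vesicle proteins VAMP8 (0.57) and VAMP3 (0.30) were higher. SYTL2, a granule effector of goblet cells, was the one goblet list gene called with Act D in that line, going from 103 to 61.9 CPM (-0.74, SE 0.13, adjusted p = 0.000494).

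**Figure D5:**
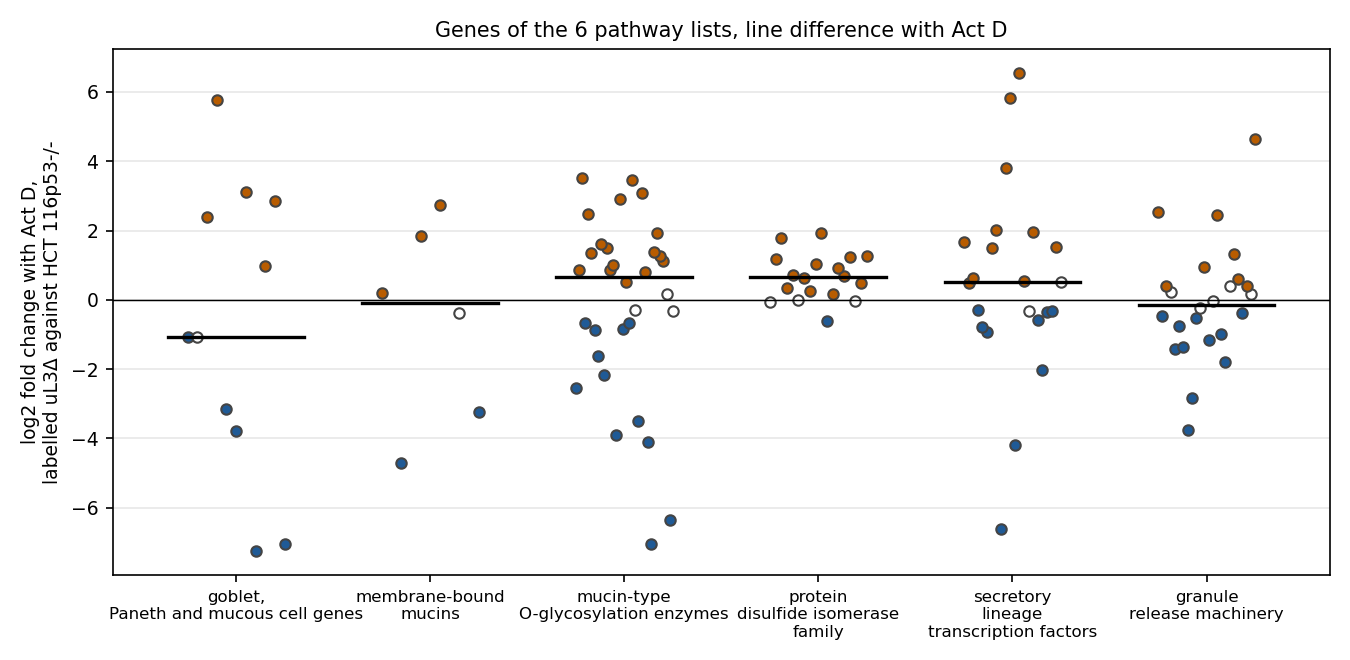
Difference between the libraries labelled uL3Δ and HCT 116p53-/-, both with Act D, on the log2 scale for every tested gene of the 6 lists. Each dot is a gene, filled in orange where called higher and in blue where called lower (adjusted p under 0.05) and hollow otherwise, and the line is the list median. Values for TCN1 and MUC19, at 0 in the uL3Δ libraries, are fitted and are no bounds. The medians ran from -1.06 for goblet, Paneth and mucous cell genes to 0.67 for O-glycosylation enzymes.

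The genes whose pattern was most like that of TFF1 over the 12 libraries were found by the mean absolute difference of log2(CPM + 0.5), each gene centred on its own mean. The 5 nearest were ALDH1L1 (0.133), LTB (0.154), SV2A (0.160), ME3 (0.170) and TRPV2 (0.175). By the same measure FOXA2 ranked 40th, TFF3 219th, AGR2 223rd, MUC13 751st and TFF2 815th among tested genes. With HCT 116p53-/- levels near 0, this distance follows the level in the uL3Δ libraries, which was lower for TFF3 and TFF2 than for TFF1, and the ranks are a description only. On the other side of TFF1, TMPRSS3, a serine protease gene, lies 5352 bases away.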

How the data were processed

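RNA of 12 libraries was analysed, in 4 groups of 3 taken from the sample labels. The authors trimmed the reads and assigned them to human Ensembl genes (hg38) with RSEM 1.2.25, and deposited an expected count and a TPM per gene, with posterior standard deviations. Replicate 2 of HCT 116p53-/- with vehicle was deposited per transcript and was summed per gene. TPM are relative to each library, in which 3 small RNAs took 31.2% to 41.8% of the total, and were not compared between lines.

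Expected counts were rounded, filtered with filterByExpr (15692 genes kept) and scaled by TMM. Groups were compared in 1 fit with edgeR 4.0.16 (quasi-likelihood test, R 4.3.3), with Benjamini-Hochberg adjustment over all tested genes and a threshold of 0.05. On simulated data with 200 changed genes for the Act D response in HCT 116p53-/-, 93.5% were recovered, with 8 false calls. The changed genes were drawn from genes with more counts than the members had in that line, and all genes were given the same dispersion. The rate therefore does not cover the members. DESeq2 1.42.0 and the likelihood ratio test were alternatives. Ratios carry exact intervals on pooled counts. All p-values measure the spread between these libraries.

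The 10 genes and all lists were chosen with earlier results of these data known. From each list, up to 3 genes in each direction were named: adjusted p under 0.05, a group mean of at least 1 CPM, groups that did not overlap, and the largest change. Promoter windows are from RefSeq (GRCh38.p14), which matched 6 of the 10 genes.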

Additional observations from a re-analysis of the deposited data

Results flagged for a closer look

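Flagged here are 6 genes, among members and named list genes, whose response to Act D differed between the lines by the interaction test. That was edgeR's quasi-likelihood test of the response in the uL3Δ libraries minus that in HCT 116p53-/-, with 3 libraries a group. By it 6.53% of all tested genes were called. Over whole lists it called 3 of 32 tested O-glycosylation enzymes, 3 of 22 transcription factors and 1 of 24 granule release genes. Some called list genes are therefore not flagged, and named genes were chosen for large changes in these same data. For AGR2 the interaction was -2.79 on the log2 scale (SE 0.78, adjusted p = 0.0382, 0.00937 to 0.125 over the alternatives), and its vehicle level in HCT 116p53-/- rests on 2 counts. The fitted value for FOXA2 was -4.89. It depends on the prior count because its HCT 116p53-/- libraries with vehicle were all at 0, and is no bound. AGR2 and FOXA2 both passed the filter on low counts through the uL3Δ libraries. No p is given for FOXA2, and its call was not kept under every alternative. As a share of the level in the uL3Δ libraries, FOXA2 in HCT 116p53-/- went from 0% to 1.07% and AGR2 from 0.0722% to 0.584%, beside 0.468% to 1.40% with Act D for 9 other genes nearly unread in that line with vehicle, and the part of this shared rise was not tested. ST6GAL1 had an interaction of 1.74 (SE 0.19, adjusted p = 6.84e-05, 3.45e-13 to 0.000362), with 11.8 and 4.07 CPM in HCT 116p53-/- and 29.9 and 34.4 in the uL3Δ libraries, vehicle first. SYT1 had one of 1.71 (SE 0.18, adjusted p = 4.73e-05, 2.64e-15 to 0.000451), with 42.5 and 13.6 CPM against 9.02 and 9.41. FUT8 had one of 0.71 (SE 0.16, adjusted p = 0.0130, 0.00147 to 0.0495), with 23.6 and 12.9 CPM against 26.5 and 23.5. KLF5 had one of -0.55 (SE 0.15, adjusted p = 0.0368, 0.00284 to 0.0887), with 57.7 and 81.1 CPM against 131 and 126.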

How the results depend on the processing

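Of 1725 values recomputed under alternatives for 123 results, 1546 were rated the same, 97 lost the call, 1 gained it, 73 moved and 8 changed sign. For tests of single genes, the same means the same direction and side of the threshold. For counts in lists it means within a fixed fold of the first count. For ratios of means without a test it means a shift smaller than the spread between libraries. Members called with Act D in HCT 116p53-/- numbered 2. They numbered 1 with DESeq2 (AGR2, adjusted p of MUC1 not given), with library size alone, without a filter and when only the groups compared were fitted (AGR2 was then not tested), 3 with the likelihood ratio test (the added gene is TFF1, set aside because its vehicle counts chose it), and 0 to 1 when 1 library was left out. For the interaction the count was 1, 0 with DESeq2 (AGR2 adjusted p = 0.0517) and 0 to 1 with 1 library left out. Leaving out 1 library gave 1833 to 2312 genes called with Act D in HCT 116p53-/- (2939 with all), 1272 to 1709 in the uL3Δ libraries (1869 with all) and 614 to 979 for the interaction (1025 with all). With 1 library left out, signs changed for the Act D difference of MUC1 in the uL3Δ libraries (-0.46 to 0.14, with 0.050 without Act D replicate 2), of MUC13 in HCT 116p53-/- (-1.05, without Act D replicate 1, to 1.19) and in the uL3Δ libraries (-0.39 to 0.094), and for the MUC13 interaction (-1.39 to 0.85, without that replicate of HCT 116p53-/-). Scaling to library size alone moved the median over tested genes by -0.24 between the lines and by -0.10 for Act D, and turned RPL3 to -0.11 with vehicle and -0.13 with Act D and CD164 to -0.054. The share of calls that were higher moved with it from 40.5% to 19.3% (Act D, HCT 116p53-/-), from 29.5% to 10.9% (Act D, uL3Δ libraries, 48.3% with upper quartile scaling and 19.5% with only the groups compared), from 49.8% to 38.3% (lines with Act D) and from 49.2% to 37.6% (lines with vehicle). Without a filter, the share for the interaction moved from 50.5% to 39.7%. The cause of these changes was not tested. The rule first written for genes unread in one line (50 CPM in the other, no count) gave no gene; at 20 CPM it gave 2, with a median share of 0.980% with Act D against 0.541% for the 9 genes of the rule set after seeing the data. TFF1 and AGR2 could not be separated per length in TPM. Fragments per kilobase use the same counts and lengths, so the ratio of the 2 genes within a library is fixed and gives no second check. Replicate numbers were shared between groups with nothing to pair them (correlations of -0.104 to 0.101). With a replicate block 2469, 1502 and 722 genes were called with Act D in HCT 116p53-/-, in the uL3Δ libraries and for the interaction, and 2, 0 and 1 members. Depth limits MUC2, MUC5B, AGR3, SPDEF and the HCT 116p53-/- values of TFF1, TFF3 and AGR2, all of a few counts.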
